A study of Arabidopsis thaliana with 12 samples.

Results

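The first hour of white light was examined across genes in wild-type (WT) seedlings of Arabidopsis thaliana, ecotype Col-0, that had germinated and grown in darkness. Of the 12 arrays of the series, 6 belong to this comparison. The WT light group has 3 arrays of 5-day-old dark-grown seedlings given 1 h of white light at 120 µmol per m2 per s, and the WT dark group has 3 arrays of 5-day-old seedlings that stayed in the dark. The other 6 arrays hold rb10 seedlings, in a light group and a dark group of 3 arrays each with the same treatments, and are used here for 1 comparison at the end. All seedlings were raised on half-strength MS medium lacking sucrose, and each RNA came from a pool of whole seedlings. The labels call the arrays of a group biological replicates. The light group was 1 h older than the dark group and had been moved, and no array of seedlings moved without light was used here, so light, time and handling cannot be told apart. The members are the 16722 of 38408 probe sets that could be paired with exactly 1 gene, and they stand for 16550 genes. Values are log2 signals, so a change of 1 is a doubling of signal. The labelled tissue was checked with 4 root hair and root genes (EXPA7, EXPA18, GH9C1 and AT3G54580), which read 3.35 to 5.34 in WT dark seedlings. Their changes, light minus dark, were -0.26 to 0.10. These signals lay below the median dark signal of all genes (7.04), so the check did not show whether roots were in the pools. No seed storage or floral marker of the lists was measured.

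In darkness a seedling spends its reserves on a long hypocotyl and keeps its cotyledons closed, a programme that PIF transcription factors hold in place. Light activates phytochromes and cryptochromes, PIF proteins are degraded, HY5 and its relative HYH accumulate, hypocotyl growth slows and plastids begin to build the photosynthetic machinery. Protochlorophyllide stored in dark plastids can form singlet oxygen when light reaches it, and chaperones, which refold or hold damaged proteins, belong to the responses known from heat and oxidative stress. The roles given for genes known only by a locus code come from general knowledge of this genome and not from the annotation table used for names.

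The arrays were alike in scale. Median signals lay from 6.72 to 6.76 on the WT light arrays and from 6.76 to 6.82 on the WT dark arrays, and the highest signals from 14.05 to 14.14. The median change over all tested probe sets was -0.059, and 40.3% of probe sets had a positive change. Pairing favoured genes without a name, since the pairing reached 16.8% of named protein-coding genes and 85.8% of those listed by locus code alone. Many well-known light genes are therefore not analysed here. The pools mix all organs, so fewer cells of a type and less RNA per cell cannot be told apart in any fall reported here. With 3 arrays a group the precision is limited, and the p-values speak only of the spread among these pools. The median standard error (SE) of a change was 0.152.

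Among called genes, more were higher than lower after 1 h of light, and the rises were larger. In the limma fit to the 6 WT arrays, 1107 of 17481 tested probe sets (6.33%) passed a Benjamini-Hochberg adjusted p of 0.05, 723 higher (4.14%) and 384 lower (2.2%) in light. Counted once per gene, 694 genes rose and 359 fell, out of 16550 (6.36% together). Counts of called members in the lists below stand against that share. All lists were chosen with earlier results of these data known. Those of chaperones, SAUR genes, pectate lyases, CYSTM, organelle genome, unfolded protein and mitochondrial genes were written afterwards. Their counts therefore describe the listed genes and do not speak for each class. The median called rise was 1.16 and the median called fall was -0.81. Rises of over 1 numbered 424 against 108 falls of that size, and over 2 there were 122 rises and 10 falls. All 36 changes of over 3 were rises, 16 of them over 4 and 7 over 5. The order was different among small shifts. A change above 0.25 was seen in 2599 genes and one below -0.25 in 3556, whereas 1228 genes lay above 0.5 and 1036 below -0.5. A further 90 genes differed by more than 1 and were not called. All 3 light arrays lay above all 3 dark arrays for 11.1% of tested probe sets and below them for 16.5%. The smallest called rise was 0.44, and the smallest called fall was -0.43. The dark signals of the 122 genes with the largest rises had a median of 6.18 and their light signals one of 9.16, while the 108 genes that fell by more than 1 had medians of 6.89 in light and 8.28 in the dark. These are signals of different probes and not transcript levels.

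**Figure D1:**
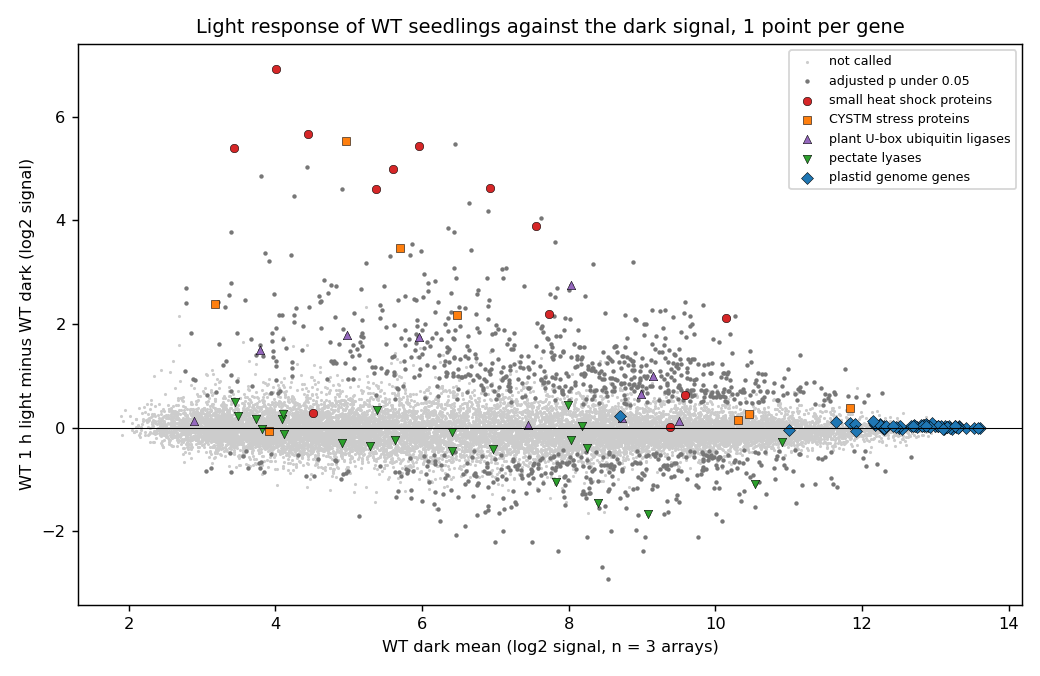
Each point is 1 gene, with the mean log2 signal of the 3 WT dark arrays on the horizontal axis and the change, WT 1 h light minus WT dark, on the vertical axis. Dark grey marks an adjusted p under 0.05 and 5 lists are coloured whether called or not. All changes of over 3 are rises, the small heat shock proteins reach 6.91, and most plastid genome genes lie flat at the right.

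Small heat shock proteins, which bind unfolding proteins and keep them from clumping, held many of the largest rises. Of 13 measured members 10 rose and none fell, with a median change of 4.61 against -0.06 over all genes. AT1G54050, a cytosolic member, read 11.22, 10.77 and 10.75 in WT light and 4.10, 3.95 and 3.96 in WT dark seedlings, a change of 6.91 (SE 0.15, limma adjusted p = 2.01e-05) or 120.3-fold. The light and dark arrays did not overlap, and the dark arrays lay close to each other. ATHSP22.0, the member of the endoplasmic reticulum, read 9.38, 8.69 and 8.43 in light and 4.09, 2.82 and 3.39 in the dark. It changed by 5.40 (SE 0.37, limma adjusted p = 0.000726), and its lowest light array stood well above its highest dark array. The dark signals of AT1G54050 and ATHSP22.0 lay below the median dark signal of all genes (7.04). How far background signal sets the size of their changes was not tested. The members of other compartments rose too. AT5G51440 of the mitochondria changed by 4.63 (SE 0.15), and AT1G52560, also mitochondrial, by 4.61 (SE 0.27). AT5G37670, the peroxisomal member, read 11.68, 11.38 and 11.27 in light and 6.96, 8.01 and 7.71 in the dark, a change of 3.88 (SE 0.28). Its dark arrays were spread wider than its light arrays, and all lay below them.

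Among the cytosolic class I genes, AT1G59860 changed by 5.66 (SE 0.33), AT1G07400 by 5.43 (SE 0.15) and AT1G53540 by 4.98 (SE 0.21). AT2G29500 of the same class read 12.28, 12.25 and 12.25 in light and 10.35, 9.96 and 10.11 in the dark. It already gave a high signal in the dark and changed by 2.12 (SE 0.12), and its arrays did not overlap. AT2G19310 changed by 2.19 (SE 0.17). The 3 members that were not called were AT4G21870 (0.63, adjusted p = 0.0783), AT5G47600 (0.28) and AT5G54660 (0.02). Light arrays lay above dark arrays in 11 of the 13, and in 1840 of all 16550 genes. Class I genes are close relatives, and whether their probes bind each other's transcripts was not tested. The count of called members was 10 or 11 whichever array was left out.

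Genes whose products work with these chaperones rose beside them. In the list of HSP70, HSP90 and HSP100 chaperones, which also took in chaperonin subunits, 4 of 7 measured members rose, with a median of 1.20. Hsp70-2 read 9.12, 8.78 and 9.05 in light and 6.32, 6.42 and 6.43 in the dark (change 2.59, SE 0.12, limma adjusted p = 0.000277). The light arrays stood apart from the dark arrays, as they did for the cytosolic HSP70 gene AT3G09440 (2.36, SE 0.12). The chaperonin subunit gene Cpn60beta2 changed by 2.0 (SE 0.18), while Cpn60beta4 differed by -0.12 (SE 0.22) and CLPB2 by 0.08 (SE 0.17), neither called.

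Of 10 measured co-chaperone genes 6 rose and none fell, with a median of 1.69. AT5G48570 (ROF2), a heat-induced prolyl isomerase, read 12.06, 11.88 and 11.80 in light and 6.75, 6.64 and 5.96 in the dark. Its change of 5.47 (SE 0.22, limma adjusted p = 0.000161) was 44.2-fold. Fes1A, a partner of cytosolic HSP70, changed by 3.85 (SE 0.18), and the J-domain genes AT2G20560 and AT1G71000 by 2.88 (SE 0.18) and 2.58 (SE 0.33). The Hop genes, whose products bridge HSP70 and HSP90, differed among themselves. Hop3 averaged 12.06 ± 0.11 in light and 8.87 ± 0.15 in the dark (SD, n = 3 each), a change of 3.19 (SE 0.12). Hop2 changed by 0.81 (SE 0.10), and Hop1 differed by -0.25 (SE 0.10, limma adjusted p = 0.239) and was not called.

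The endoplasmic reticulum and mitochondria were also represented. BZIP60, a factor of the unfolded protein response, read 11.09, 10.74 and 10.73 in light and 9.93, 9.84 and 9.72 in the dark, a change of 1.03 (SE 0.14, limma adjusted p = 0.00723). BIP1, the HSP70 of the reticulum, changed by 1.20 (SE 0.14). All light arrays of both genes lay above all dark arrays. ATERDJ3B, a J-domain partner of BiP, differed by 0.69 (SE 0.17, limma adjusted p = 0.0675) without being called. Of 5 genes known to answer mitochondrial stress 3 rose. NDB2, an alternative NADH dehydrogenase of the inner membrane, changed by 1.61 (SE 0.13) and AT2G21640, a gene induced by oxidative stress, by 1.77 (SE 0.25). AT2G41730 read 9.17, 8.09 and 8.89 in light and 2.06, 5.27 and 5.42 in the dark. Its change of 4.47 (SE 0.90, limma adjusted p = 0.0354) was the least precise of the large rises, since dark replicate 1 lay far below the other two. The call was kept without dark replicate 1 and lost without any other single array (adjusted p up to 0.121).

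**Figure D2:**
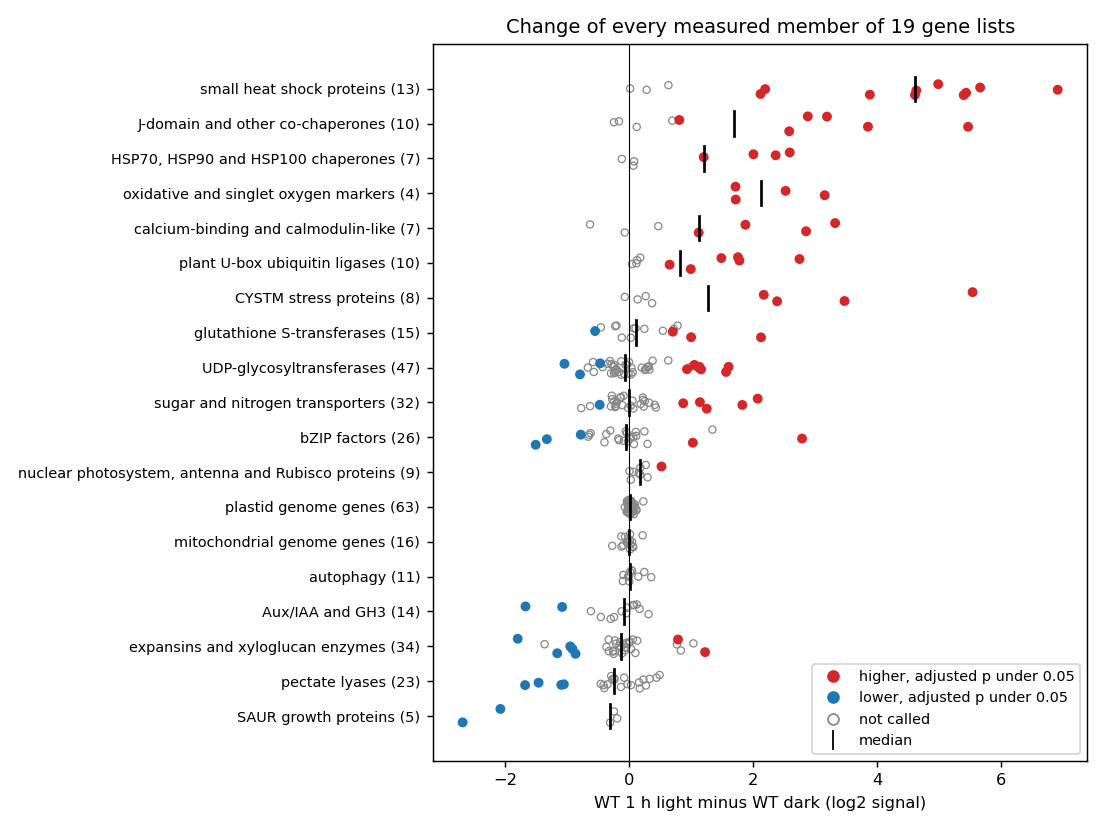
Each row is a gene list with its number of measured members, and each point is 1 member's change, WT 1 h light minus WT dark in log2 signal. Red points rose and blue points fell at an adjusted p under 0.05, open points were not called, and black bars are medians, from 4.61 for small heat shock proteins to -0.31 for SAUR growth proteins.

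The 4 measured genes of the oxidative stress list rose, with a median of 2.12, where 6.36% of all genes were called. The list was chosen with earlier results of these data known, so this count does not speak for such markers as a class. STZ (ZAT10), a zinc finger repressor of stress responses, read 11.58, 11.33 and 11.55 in light and 8.45, 8.51 and 8.04 in the dark, a change of 3.15 (SE 0.16, limma adjusted p = 0.000304). Its relative ZAT7 changed by 2.33 (SE 0.20). AT3G28580, an AAA-ATPase gene that singlet oxygen is known to induce, read 9.01, 8.46 and 8.16 in light and 5.71, 5.96 and 6.39 in the dark, a change of 2.52 (SE 0.26). No light array of these genes overlapped a dark array. AT5G64870, a flotillin gene, changed by 1.71 (SE 0.18), and GRX480, a glutaredoxin that binds TGA factors, by 1.72 (SE 0.24). GRX480 was the single called member of 6 measured CC-type glutaredoxins.

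Some genes for calcium-binding proteins rose as well. Of 7 measured calmodulin and calmodulin-like genes 4 rose, with a median of 1.12. CML37 read 7.87, 7.25 and 7.49 in light and 4.26, 4.01 and 4.37 in the dark, a change of 3.32 (SE 0.18, limma adjusted p = 0.000401). CML38 read 7.82, 7.22 and 7.50 in light and 4.32, 5.17 and 4.50 in the dark, a change of 2.85 (SE 0.26). Both genes had their light arrays clear of the dark arrays. CML42 changed by 1.87 (SE 0.27) and CML41 differed by -0.63 (SE 0.20, limma adjusted p = 0.138), the opposite sign. CML23 changed by 1.12 (SE 0.20), a call lost without dark replicate 2 or 3 or light replicate 1 or 3 (adjusted p up to 0.0719).

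Plant U-box (PUB) ubiquitin ligases, several of which restrain immune and drought responses, had 6 risen members of 10 and a median of 0.82. PUB23 read 10.97, 10.70 and 10.65 in light and 7.69, 7.82 and 8.58 in the dark, a change of 2.75 (SE 0.25, limma adjusted p = 0.00169). PUB19 changed by 1.78 (SE 0.15), PUB39 by 1.75 (SE 0.12), PUB54 by 1.49 (SE 0.18), PUB24 by 0.99 (SE 0.15) and PUB22 by 0.65 (SE 0.13). Light arrays lay above dark arrays for 7 of the 10 genes, and for 1840 of all 16550 genes. PUB25, PUB26, PUB43 and PUB15 differed by 0.05 to 0.18 and were not called. The count was 5 or 6 when 1 array was left out, and 4 with the replicate number as a block.

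CYSTM genes, which encode short cysteine-rich membrane proteins, had 4 risen members of 8 and a median of 1.27. This list was written with results known, so the count does not speak for the class. AT2G32200 read 10.89, 10.35 and 10.28 in light and 4.80, 4.82 and 5.28 in the dark, a change of 5.54 (SE 0.21, limma adjusted p = 0.000152). Its neighbours on chromosome 2, AT2G32190 and AT2G32210, changed by 3.47 (SE 0.24) and 2.39 (SE 0.19). AT1G56060 changed by 2.17 (SE 0.37) but was not called once any of the 3 dark arrays was left out (adjusted p up to 0.0719).

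Among enzymes that act on small molecules, a minority of members was called. Of 47 UDP-glycosyltransferases 7 rose and 3 fell (21.3% called, against 6.36% over all genes), and the median was -0.06, that of all genes. The counts were 4 to 6 risen and 1 to 3 fallen when 1 array was left out (4 and 1 without light replicate 1), and 11 rose with a trended and robust prior. The rises included UGT73B5 (1.56, SE 0.13), UGT73C7 (1.16, SE 0.17), UGT73B4 (1.13, SE 0.12) and UGT73B3 (0.93, SE 0.12). UGT73B5 read 10.24, 9.96 and 10.34 in light and 8.54, 8.74 and 8.57 in the dark, so that its groups lay apart. The glycosyltransferase gene AT1G05675, placed outside the list because it carries no symbol, changed by 4.85 (limma adjusted p = 0.000318). Of 15 glutathione S-transferases 3 rose and 1 fell, but the number risen was 0 without light replicate 1 or 3 and 1 without dark replicate 3, and the fall was called only without dark replicate 1 among the fits that left out 1 array. Of 25 cytochrome P450 genes 1 was called (4.0%, against 6.36% over all genes), and that call, of CYP71B26, was lost with all 12 arrays in the fit (adjusted p = 0.199).

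**Figure D3:**
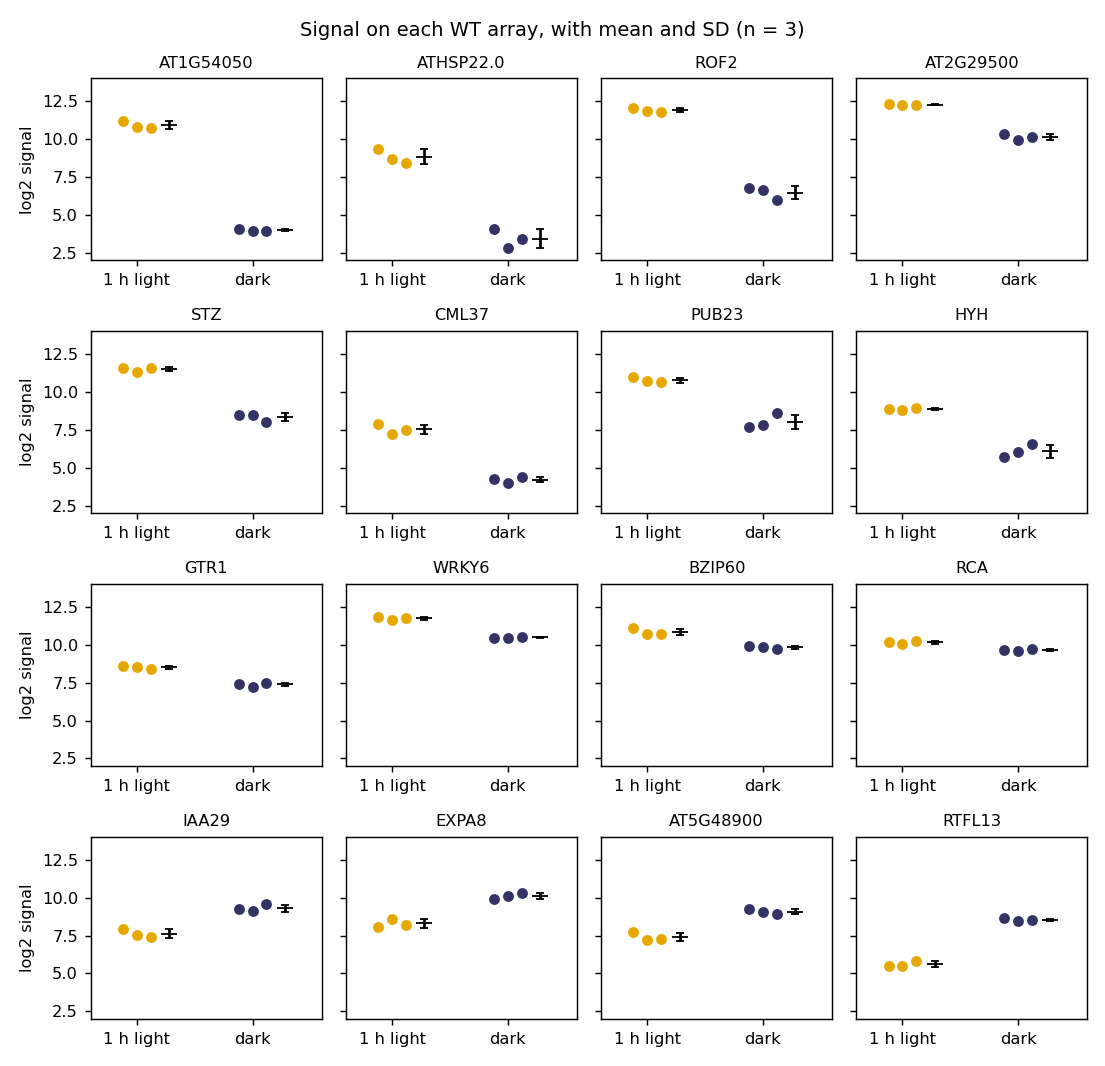
Dots are the log2 signals of the 3 WT arrays after 1 h of light (left in each panel) and the 3 WT dark arrays (right), with the mean and SD beside them (n = 3). In the first 12 genes, from AT1G54050 to RCA, every light array lies above every dark array, and in IAA29, EXPA8, AT5G48900 and RTFL13 every light array lies below.

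Light regulators were thinly measured. HYH, a bZIP factor that acts with HY5, read 8.88, 8.80 and 8.94 in light and 5.69, 6.02 and 6.56 in the dark, a change of 2.79 (SE 0.22, limma adjusted p = 0.00106). The light arrays lay close together and none overlapped the dark arrays. PIF7, a factor of the shade response, differed by 0.60 (SE 0.17, limma adjusted p = 0.101) and FHL, a carrier of phytochrome A into the nucleus, by -0.39 (SE 0.13, limma adjusted p = 0.148). GI, a clock protein, read 11.31, 11.45 and 11.42 in light and 10.81, 10.69 and 10.63 in the dark, a change of 0.68 (SE 0.10, limma adjusted p = 0.0110), with adjusted p = 0.0503 once light replicate 2 was left out.

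Other transcription factors changed singly. Of 26 bZIP genes 2 rose (HYH and BZIP60) and 3 fell, among them BZIP34 (-1.51, SE 0.18) and BZIP61 (-0.78, SE 0.11). Of 7 WRKY genes WRKY6, known from senescence and phosphate responses, rose by 1.26 (SE 0.10, limma adjusted p = 0.00105). It read 11.82, 11.65 and 11.77 in light and 10.46, 10.47 and 10.54 in the dark. The change was small beside those of the chaperones, and the groups lay well apart. The DREB-type factor tny changed by 1.25 (SE 0.18), the 1 called gene of 5 in its list.

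Several growth genes fell. SAUR proteins loosen walls by activating proton pumps, and 2 of 5 measured members fell. AT3G53250 (SAUR57) read 5.34, 6.55 and 5.43 in light and 8.02, 8.75 and 8.60 in the dark, a change of -2.69 (SE 0.36, limma adjusted p = 0.00764). AT2G18010 changed by -2.08 (SE 0.35), a call lost without dark replicate 2 or 3 or light replicate 1 or 2 (adjusted p up to 0.0721). Of 14 Aux/IAA and GH3 genes, which repress auxin response or conjugate auxin, 2 fell and none rose. IAA29 read 7.93, 7.54 and 7.42 in light and 9.22, 9.13 and 9.56 in the dark, a change of -1.67 (SE 0.18, limma adjusted p = 0.00343). GH3.3 read 10.14, 10.21 and 10.47 in light and 11.34, 11.46 and 11.26 in the dark, a change of -1.08 (SE 0.13). In both genes the light arrays lay wholly below the dark arrays. The other 12 differed by -0.62 to 0.31 without being called, so the falls were those of single members.

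Wall-modifying families moved in both directions. Of 34 expansin and xyloglucan enzyme genes 5 fell and 2 rose (20.6% called, against 6.36% over all genes), with a median of -0.12. Light arrays lay below dark arrays in 11 of them, and in 2734 of all 16550 genes. EXPA8, an expansin, read 8.08, 8.60 and 8.22 in light and 9.91, 10.10 and 10.28 in the dark, a change of -1.80 (SE 0.17, limma adjusted p = 0.00217). EXPA16 changed by -1.16 (SE 0.15), EXPA9 by -0.92 (SE 0.10), XTH33 by -0.95 (SE 0.11) and XTH16 by -0.86 (SE 0.13). XTH18, a xyloglucan endotransglucosylase, read 11.16, 10.87 and 10.91 in light and 9.66, 9.70 and 9.91 in the dark, a change of 1.22 (SE 0.13), and its relative XTH19 changed by 0.79 (SE 0.11). The light arrays of XTH18 were all above its dark arrays, opposite to EXPA8.

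Pectate lyases, which cut wall pectin, had 4 fallen members of 23 (17.4%) and none risen, against 6.36% called over all genes. Their median was -0.24. Light arrays lay below dark arrays in 8 of them, and in 2734 of all 16550 genes. AT5G48900 read 7.72, 7.20 and 7.28 in light and 9.26, 9.03 and 8.94 in the dark, a change of -1.68 (SE 0.17, limma adjusted p = 0.00279). AT1G67750 read 7.01, 6.60 and 7.19 in light and 8.36, 8.40 and 8.43 in the dark, a change of -1.46 (SE 0.16). Both genes were lower on every light array than on any dark array. AT3G07010 changed by -1.09 (SE 0.11) and AT5G63180 by -1.05 (SE 0.14), and the 4 calls held whichever array was left out. AT4G25260 and AT4G25250, adjacent genes for pectin methylesterase inhibitors outside the lists, changed by -2.12 (SE 0.17) and -1.47 (SE 0.12). AT4G25260 overlaps OTP70, which also fell (-1.31), in its annotated span. The list of pectin enzymes and inhibitors itself had 1 risen member of 4, none fallen and a median of -0.08. That rise was called in some and not all of the fits that left out 1 array.

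The largest fall among probe sets paired with 1 gene was that of RTFL13, of a family of small peptides that restrict cell proliferation. It read 5.47, 5.52 and 5.85 in light and 8.63, 8.47 and 8.53 in the dark, a change of -2.93 (SE 0.13, limma adjusted p = 0.000266). PRA1.C, of a family of membrane proteins that bind Rab GTPases, read 5.38, 5.55 and 5.53 in light and 8.11, 8.01 and 7.46 in the dark, a change of -2.38 (SE 0.19). Both were named among the largest falls, where groups without overlap were a condition, so their separation was fixed by the choice. AT4G14480 (BLUS1), a kinase of blue light signalling in guard cells, changed by -1.97 (SE 0.22), and AT5G67390 by -2.11 (SE 0.11). Of 4 measured stomatal lineage genes 2 fell. FMA (FAMA), which directs guard cell fate, changed by -1.22 (SE 0.17, limma adjusted p = 0.00950), a call lost with all 12 arrays in the fit (adjusted p = 0.0553) and with 11 (0.0633). SPCH, which starts the lineage, read 6.37, 6.17 and 5.93 in light and 7.15, 6.81 and 7.31 in the dark, a change of -0.93 (SE 0.18, limma adjusted p = 0.0284). The SPCH call was lost without dark replicate 1 or 3 or light replicate 2 or 3 (adjusted p up to 0.0935).

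Transporters of sugars and nitrogen compounds had 5 risen members of 32 and 1 fallen (18.8% called, against 6.36% over all genes). The fall was not called when any 1 array was left out. The median of the list was 0.0, and light arrays lay above dark arrays in 8 members and below them in 7. AT1G59740, of the nitrate and peptide transporter family, read 11.06, 10.87 and 11.02 in light and 8.87, 8.88 and 8.99 in the dark, a change of 2.07 (SE 0.10, limma adjusted p = 0.000304). SWEET17, a fructose transporter of the vacuole, changed by 1.82 (SE 0.20). GTR1, which carries glucosinolates, read 8.60, 8.56 and 8.41 in light and 7.41, 7.24 and 7.49 in the dark, a change of 1.14 (SE 0.11). The arrays of AT1G59740 and GTR1 did not overlap between groups.

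Calls among the measured greening genes were few, as they were over all genes (6.36%). None of 4 chlorophyll synthesis genes was called, with differences of 0.47 (HEMA2, glutamyl-tRNA reductase, limma adjusted p = 0.0780), -0.11 (GSA1), -0.20 (CHLM) and -0.38 (PORB, protochlorophyllide reductase, 95% interval -0.74 to -0.01). Of 9 nuclear genes for photosystem, antenna and Rubisco proteins, all differed by 0.01 to 0.51 and 1 was called. That gene, RCA (Rubisco activase), read 10.18, 10.06 and 10.27 in light and 9.68, 9.59 and 9.71 in the dark, a change of 0.51 (SE 0.10, limma adjusted p = 0.0372). Its groups did not overlap, but the call was lost without any 1 of the 6 arrays (adjusted p up to 0.125). LHCB4.2, an antenna protein gene, differed by 0.01 with a 95% interval from -0.24 to 0.25.

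No gene of the organelle genomes was called. None of 63 plastid genome genes was called, and they differed by -0.07 to 0.23 with a median of 0.02. Their dark signals ran from 8.71 (psbT) to 13.60 with a median of 12.85. Most thus lay towards the top of the scale, and whether saturation compressed changes was not tested. rbcL, the large subunit of Rubisco, read 13.26, 13.27 and 13.31 in light and 13.27, 13.25 and 13.27 in the dark, and its 95% interval ran from -0.19 to 0.23. psbA, for the D1 protein of photosystem II, read 12.72, 12.73 and 12.83 in light and 12.77, 12.71 and 12.78 in the dark. Light and dark arrays of both genes overlapped. The widest difference, 0.23 for psbT, the gene of lowest dark signal among them, had an interval from -0.14 to 0.60. None of 16 mitochondrial genome genes was called, and they differed by -0.27 to 0.22.

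Several further lists held no called member. They were 11 autophagy genes (differences -0.10 to 0.36), 6 histone genes (-0.39 to 0.48), 5 abscisic acid response genes and 4 reference genes (-0.16 to 0.01). KIN2, a cold- and abscisic acid-induced gene, differed by 1.53 (SE 0.34) and narrowly missed the call (limma adjusted p = 0.0505). A missed call does not show that a gene was unaffected.

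Families defined by a shared symbol stem with at least 8 measured genes numbered 37, and 17 of them held a call. The called share was 60% for PUB (10 genes), 44.4% for XTH (9), 27.3% for GSTU (11), 23.5% for BZIP (17), 23.1% for EXPA (13) and 21.6% for UGT (51), against 6.36% over all genes. Calls went both ways in XTH (2 higher, 2 lower), BZIP (1 higher, 3 lower) and UGT (8 higher, 3 lower). In PUB and GSTU all calls were rises, and in EXPA all were falls. None of the 3 GSTU calls was kept without light replicate 1 or 3. Stems and lists were matched differently, so their numbers of genes differ. The other 20 families held no call. They included the LCR family of cysteine-rich peptides (63 genes), SCPL carboxypeptidase-like enzymes (32), TBL wall acetylation proteins (23), RALFL peptides (18) and CLE peptides (16).

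The WT response was finally set beside that of rb10, which the labels give as a name only and which is known from the study as a mutant of RAPTOR1 (RAPTOR1B), a partner of the growth kinase TOR. RAPTOR1 read 11.62, 11.69 and 11.58 in WT light and 11.84, 11.66 and 11.63 in WT dark seedlings. In rb10 it read 10.90, 10.89 and 11.13 in light and 11.06, 11.08 and 11.60 in the dark. The array labelled rb10 dark replicate 3 thus read like the WT arrays, and the position of the probe relative to the mutation is not given. The difference of the light effects, rb10 minus WT, passed an adjusted p of 0.05 for 380 of 17481 tested probe sets (2.17%) with all 12 arrays and for 394 (2.25%) without that array. Of the 369 genes concerned, 218 had risen in WT, 36 had fallen in WT and 115 were not called in WT, and the difference was negative for 282 and positive for 87. Of these genes 304 were also called without that array.

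Many of the largest WT rises were smaller in rb10. These genes were chosen by the size of their WT change, and the same WT arrays enter the difference. A smaller change in rb10 is therefore partly built in by the choice. AT1G54050 changed by 6.91 in WT and 1.74 in rb10, AT2G32200 by 5.54 in WT and 0.75 in rb10, and AT1G52560 by 4.61 in WT and -0.23 in rb10 (limma adjusted p of the difference 0.000286, 0.000110 and 0.00363). CML37 changed by 3.32 in WT and 0.46 in rb10, and STZ by 3.15 in WT and 1.32 in rb10. For other genes a difference was not called. HYH changed by 2.79 in WT and 2.90 in rb10 (adjusted p = 0.909), Cpn60beta2 by 2.0 in WT and 2.07 in rb10, and SWEET17 by 1.82 in WT and 1.76 in rb10. RTFL13 and AT3G53250 fell in WT, and their rb10 points lie almost on the WT points.

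**Figure D4:**
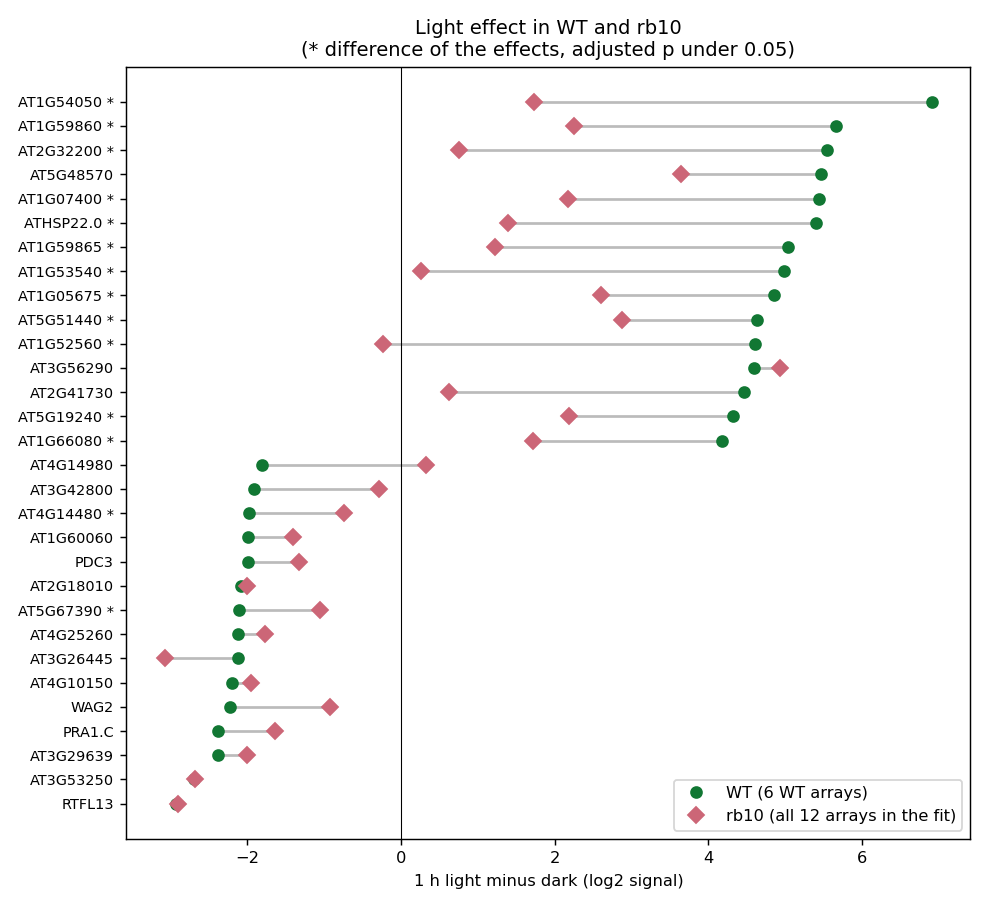
Green circles are the WT changes and pink diamonds the rb10 changes, 1 h light minus dark in log2 signal, for the 15 largest rises and 15 largest falls in WT, and an asterisk marks a called difference between them. Most rises lie farther right in WT, as for AT1G54050 with 6.91 against 1.74, which choosing genes by their WT change partly builds in.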

How the data were processed

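RNA of 12 seedling pools was measured on 1 array each, and the 6 WT arrays carry the main comparison. Each probe set carries a log2 signal as the authors deposited it, and per the submitters' processing notes RMA and GCRMA were used, with no version and no word on which was applied. No further normalization was done, and the 38408 probe sets had a value on every array. Arrays hold no read counts, so no depth is given. Genes were assigned by accession and locus code through the TAIR10.1 gene table, which served for names and gene order only, because the authors' build is not given in the sources used here: 16722 with 1 gene, 759 with several and 20927 with none. The 17481 with at least 1 gene were tested without a signal filter, and 146 genes with several probe sets were represented by their brightest one on average over the WT arrays.

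The 2 groups were compared with limma 3.58.1 in R 4.3.3 (lmFit and eBayes, 4 residual and 2.6 prior degrees of freedom, Benjamini-Hochberg threshold 0.05). The difference of the light effects came from 1 fit of 4 group means over 12 arrays. The script was tested on simulated data first. Same-numbered arrays of the groups deviated together with correlations of -0.022, 0.009 and 0.065, so the numbers were not taken as pairs. Gene lists, members and alternatives were chosen with earlier results of these data known. The lists of chaperones, SAUR genes, pectate lyases, CYSTM, organelle genome, unfolded protein and mitochondrial genes were written from locus codes afterwards. Named genes are the 15 largest rises and falls without overlap, for each list up to 4 members that passed, otherwise its member of smallest p, and the reference genes. Members named beyond that rule, and families and neighbours, were chosen after values were seen. Figures were drawn with matplotlib 3.10.9.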

Additional observations from a re-analysis of the deposited data

Results flagged for a closer look

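For 36 of the named genes the light effect differed between the genotypes by the interaction test in limma (adjusted p under 0.05 over all tested probe sets, 12 arrays). Differences below are rb10 minus WT in log2 signal, so a negative value for a gene that rose in WT means a smaller rise or a fall in rb10. Of these genes 30 had risen in WT and had a negative difference. Most named genes were chosen by their change in WT, which favours differences of this sign, so the count does not stand for all genes. Among small heat shock proteins it was -5.18 for AT1G54050, -4.84 for AT1G52560, -4.72 for AT1G53540, -4.0 for ATHSP22.0, -3.41 for AT1G59860, -3.26 for AT1G07400 and -1.76 for AT5G51440. The neighbour AT1G59865 had -3.82. Among other chaperone genes it was -2.35 for Fes1A, -1.56 for Hsp70-2, -1.50 for AT2G20560 and -2.46 for AT1G66080. The CYSTM genes AT2G32200, AT2G32190, AT2G32210 and AT1G56060 had -4.79, -3.00, -2.22 and -2.19. In the calcium and oxidative stress lists it was -3.70 for CML38, -2.86 for CML37, -3.00 for AT3G28580, -1.83 for STZ and -1.45 for AT5G64870. The zinc finger gene ZAT7 had -2.54. The ubiquitin ligases PUB54 and PUB23 had -2.27 and -2.04. The rest were AT1G05675 (-2.26), AT5G19240 (-2.14), ATPMEPCRB (-1.13), Prx37 (-1.08), UGT73B5 (-1.08) and WRKY6 (-0.75).

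GI rose in both genotypes and its difference was 0.64. IAA29 fell in both and its difference was -1.77. Another 4 genes that fell in WT had positive differences: AT5G67390 (1.05), ATL43 (1.16), AT4G14480 (1.23) and SPCH (1.37). When rb10 dark replicate 3 was set aside, an array that goes against its label in RAPTOR1, 4 of the 36 genes were no longer called: AT1G56060 (adjusted p = 0.0558), AT5G64870 (0.0588), WRKY6 (0.0603) and SPCH (0.0630). Other named genes were called by the interaction test in limma without that array and not with all 12. They included AT5G48570 (adjusted p = 0.0327), CML42 (0.0296), AT2G21640 (0.022), XTH18 (0.0101), XTH33 (0.0197), EXPA8 (0.0233), AT5G48900 (0.033) and UGT73B4 (0.0469).

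Probe sets that could be paired with no gene also differed between WT light and WT dark seedlings. When every probe set was tested, 985 of these 20927 were called (4.71%), 663 higher and 322 lower in WT light than in WT dark, with changes from -4.59 to 7.31. They are not named here.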

How the results depend on the processing

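The number of probe sets called between WT light and WT dark, 1107 as reported, was 1204 with all 12 arrays in the fit, 1134 after quantile normalization again, 1131 with equal array medians and 1348 without the lowest 25% of signals. It was 1835 (1262 higher) when all 38408 probe sets were tested and 1833 (815 lower) with a trended and robust prior, where 55.5% of calls were higher against 65.3% as reported. With 11 arrays, the one labelled rb10 dark replicate 3 set aside, there were 607 lower. With the replicate number as a block, 622 were called, 466 higher and 156 lower, and 25 of the named genes were no longer called, among them GI, GRX480, FMA, SPCH and RCA. Without any single WT array, calls ranged from 691 to 773, with 508 to 543 higher and 183 to 230 lower. The difference of the light effects gave 380 calls, 394 with 11 arrays and 306 with the replicate block. Of 124 named genes 103 were called, 74 of them in every fit that left out 1 WT array and 71 under every alternative. None of the 103 called genes reversed its direction. FMA was also lost with all 12 arrays and with 11. Whether signals near the top of the scale, as in the plastid genome, limit changes was not tested. Except where a fit used fewer arrays or tested other probe sets, the cause was not tested.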

Other observations

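Responding genes often lay beside each other on the chromosomes. In the gene order of the TAIR10.1 table, 14031 genes had a measured neighbour. Of the 597 risen genes with one, 122 (20.4%) had a risen neighbour, while 6.1% of all such genes did. Of the 315 fallen genes with one, 40 (12.7%) had a fallen neighbour, while 3.3% of all such genes did. There were 64 risen pairs and 21 fallen pairs, of which 5 and 3 overlapped in their annotated spans. The risen pairs included the small heat shock protein gene AT1G59860 (5.66) with AT1G59865 (5.04), AT1G66080 (4.18), a relative of the HSP70 importer Hikeshi, with AT1G66090 (2.46), AT5G48530 (2.58) with AT5G48540 (2.73), and AT2G20560 (2.88) with AT2G20562 (2.15). AT5G22520, AT5G22530 and AT5G22540 formed a run with changes of 2.42, 1.72 and 1.83. PDC2, a pyruvate decarboxylase gene, rose by 1.57 beside AT5G54950 (1.83), and TZP, known from light-dependent growth, by 1.56 beside AT5G43620 (1.47). The part of overlapping or related sequence in these counts was not tested.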
